A study of Mus musculus with 72 samples.

Results

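The genes described here are 46 mouse genes of DNA damage signalling and DNA repair. They were taken by name, from a list drawn up with earlier results of these data known. Every probe outside the control spots whose RefSeq transcript led to one of these names was collected. All 46 had at least 1 probe. They held 79 probes, 19 genes with 1 probe and 27 with more, out of 23787 genes that could be named and 56605 probes on the array. Each gene is represented by the probe that was brightest over all arrays.

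Liver and lung were taken 48 h after total-body irradiation with X-rays from female C57BL/6 J mice aged 6 to 8 weeks at exposure. The labels name no transgene or deletion. Each organ had 6 groups of 3 samples. The control group received 0 Gy, a sham irradiation in the same kind of plastic container, and the others a single dose, which was 1 or 2 Gy, 4 Gy, 8 Gy or 12 Gy. That gave 36 arrays of messenger RNA, 18 for each organ. The genes were compared with 0 Gy at each dose, along the dose, and between the organs.

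DNA damage is read by kinases and by the proteins they recruit, which halt the cell cycle and call in repair. Breaks through both strands are rejoined by end joining at any time of the cycle or, in cells that have copied their DNA, by homologous recombination, whose factors are made mainly in dividing cells. Oxidised bases and breaks of a single strand go to base excision repair, bulky lesions to nucleotide excision repair, crosslinks to the Fanconi anaemia pathway, and lesions met by a replication fork can be copied over by translesion polymerases. Several of these genes, Xpc, Ddb2 and Polk among them, are known transcriptional targets of p53 in some cells and species, while adult liver and lung are largely non-dividing tissues.

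All levels are log2 intensities of 1-colour Agilent arrays after background correction and quantile normalization within an organ, so a difference of 1 is a 2-fold change, and levels of the organs are not on 1 scale except where stated. Levels of different genes cannot be ranked against each other. The share of spots well above background was 46.1 to 54.0% per liver array and 54.1 to 64.0% per lung array, and each array correlated with the others of its organ at a mean r of 0.974 to 0.985. At 0 Gy all 15 hepatocyte markers were lower in lung than in liver, with a median difference of -9.67 (arrays normalized together), and all 12 lung epithelium markers were higher, with a median of 9.69. Over all doses the mean of the hepatocyte markers ran from 6.85 to 12.7 in the lungs, highest in a 4 Gy lung, and stood at 17.8 to 17.9 in every liver group; its part in the lung values was not tested. The arrays lay on 5 slides that run nearly parallel to dose within each organ, so that slide and dose are partly confounded. The 3 lungs at 12 Gy and 8 Gy lung 25 shared slide 5 and stood apart, with 54.1 to 54.8% of spots well above background against 59.2 to 64.0% on the other lung arrays, and 12 Gy lung 16 had 1578 outlier spots. Lung trends are therefore also given without these 4 arrays, an alternative chosen after seeing the data. Fits without them reach only 8 Gy but keep the scale of 12 Gy. Their trends are thus extrapolated, and their size is not comparable with that of the full range. Values within a slide are given below for some genes where a slide held several doses. Whole organs were measured, and fewer cells of a type and less RNA per cell cannot be told apart.

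Detection differed between the organs. Probes that rose well above background on 1 or more of the arrays fitted together were tested, which took in 45 of the 46 genes in liver and all 46 in lung. In liver 32 genes were well above background on all 18 arrays, and in lung 40 were. Fancd2, a protein that is ubiquitinated at stalled forks, was well above background on 0 of 18 liver arrays and 8 of 18 lung arrays. Of the other genes detected on few liver arrays, Palb2, the partner of Brca2, was detected on 1 of 18 liver and 13 of 18 lung arrays. The same counts in liver and lung were for Exo1, a nuclease that resects break ends, 2 and 15, for Fanci, the partner of Fancd2, 3 and 18, for Chek1, the kinase downstream of Atr, 3 and 15, for Rad54l, a motor protein of strand exchange, 4 and 18, for Bard1, the partner of Brca1, 6 and 18, for Polh 7 and 17, and for Rad9b 3 and 2.

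Few of the genes changed with dose in liver. In the tests across all probes (limma, Benjamini-Hochberg adjusted p below 0.05, called passing from here on), 0 of 45 genes passed at 1 Gy, where unadjusted p fell below 0.05 for 1 higher and 3 lower genes and 0.0182% of all probes passed higher and 0.0235% lower. At 2 Gy 2 genes rose and 0 fell, against 0.182% and 0.279% of all probes. At 4 Gy 2 rose and 2 fell, against 1.59% and 1.72%. At 8 Gy 3 rose and 6 fell, against 4.95% in each direction, and at 12 Gy 2 rose and 5 fell, against 2.91% and 4.10%. Over the whole dose range a linear trend, given as the log2 change over 12 Gy, passed for 4 genes upwards (Ddias, Polk, Rad51c and Brca1) and 5 downwards (Fanci, Chek2, Parp2, Trp53bp1 and Ercc1), against 4.04% and 5.47% of all probes. The median trend of the 45 genes was -0.03, and that of all probes 0.00. Without normalization 2 trends passed upwards and 7 downwards, beside 536 and 3023 of all probes. Over all doses 3 genes passed higher and 8 lower, or 5 and 7 from Agilent's processed signal.

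In lung 9 genes passed at 12 Gy and up to 7 at each lower dose, but all 12 Gy arrays lay on slide 5. At 1 Gy 0 of 46 genes passed, with unadjusted p below 0.05 for 1 higher and 7 lower genes, where 0.0114% of all probes passed higher and 0.0136% lower. At 2 Gy 0 rose and 1 fell (all probes 0.100% and 0.455%), at 4 Gy 2 rose and 2 fell (0.641% and 1.54%), and at 8 Gy 3 rose and 4 fell (1.68% and 2.57%). At 12 Gy 6 rose and 3 fell, against a background of 13.5% and 7.81%. With slide as a random block 2 rose and 0 fell at 12 Gy, beside 1026 and 769 of 43979 probes. At 8 Gy 2 rose and 1 fell with this block, beside 204 and 558 probes. The lung trend passed for 12 genes upwards and 2 downwards, against 19.7% and 11.0% of all probes. The median trend of the 46 genes was 0.09, beside 0.08 for all probes. This split depends on the scaling. It was 12 up and 5 down from Agilent's processed signal, where 9250 and 5446 of all probes passed. From the values the authors deposited for the series it was 10 and 7, beside 8338 and 6049 probes. Without any normalization between arrays it was 2 and 35, beside 398 and 26375 probes, and the median trend of all probes in lung moved to -0.64. Without the 4 arrays of slide 5, 3 trends passed upwards (Ddias, Polk and Ercc5) and 0 downwards, beside 1095 and 1217 of all probes. Over all doses 6 genes passed higher and 4 lower in lung, and 2 and 29 without normalization. At 12 Gy alone 1 and 29 genes passed without normalization, beside 293 and 20794 of all probes.

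**Figure D1:**
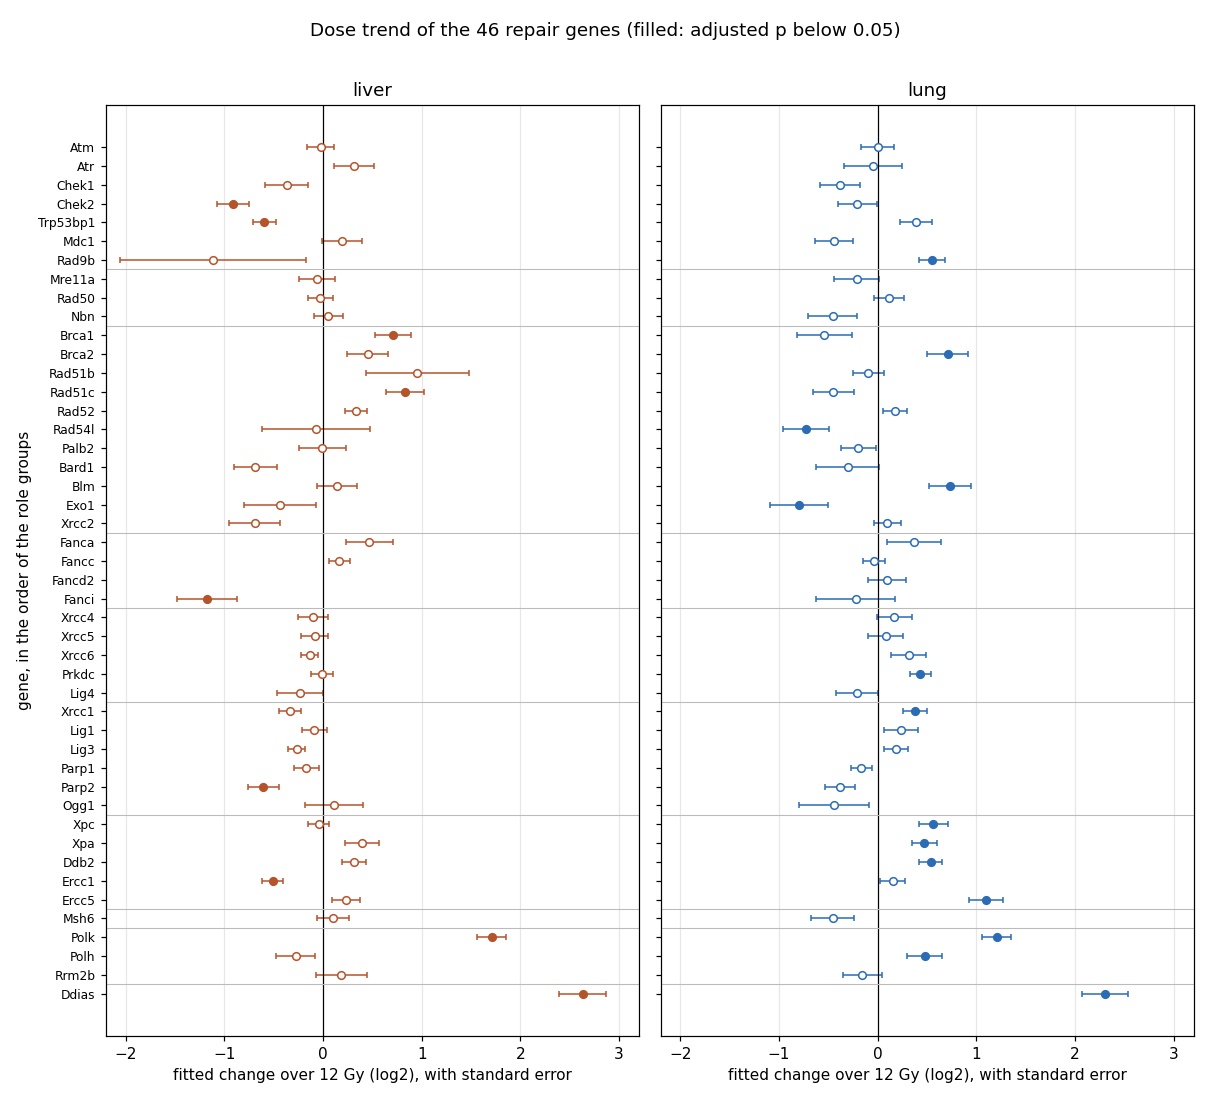
Dose trend of each of the 46 genes in liver and lung, as log2 change over 12 Gy with its standard error, grouped by role. Filled points had adjusted p below 0.05 (9 in liver, 14 in lung), and Ddias and Polk lie farthest to the right in both organs.

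Ddias, an anti-apoptotic factor induced by DNA damage, rose with dose in both organs. In liver the samples read 5.04, 5.23 and 5.43 at 0 Gy, 5.46, 5.58 and 5.58 at 1 Gy, 6.45, 6.27 and 6.49 at 2 Gy, 6.71, 6.89 and 6.75 at 4 Gy, 6.83, 7.44 and 7.93 at 8 Gy, and 7.75, 8.08 and 8.16 at 12 Gy. Every irradiated liver lay above every control, already at 1 Gy, where the difference of 0.30 did not pass (adjusted p = 0.846). The liver level was 2.25-fold the control at 2 Gy (log2 1.17, SE 0.21, adjusted p = 0.0243) and 6.80-fold at 12 Gy (log2 2.76, adjusted p = 2.74e-06), with log2 changes of 1.55 at 4 Gy and 2.17 at 8 Gy between them. Of the 3 control livers 1 was well above background, and the size of the change differed with the treatment of low signal. At 12 Gy it was 1.80 with a background offset of 50 and 3.70 from Agilent's processed signal, both passing. The 2 Gy call was lost without any 1 of the 2 Gy livers or without control liver 1 or 11, at changes of 1.07 to 1.24.

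In lung Ddias read 5.77, 5.65 and 6.00 at 0 Gy, 6.64, 6.34 and 6.45 at 1 Gy, 6.43, 6.81 and 6.73 at 2 Gy, 7.07, 7.64 and 7.72 at 4 Gy, 7.90, 8.19 and 7.78 at 8 Gy, and 8.22, 8.19 and 8.39 at 12 Gy. No irradiated lung overlapped the controls here either. The changes passed at 4, 8 and 12 Gy, at log2 1.67, 2.15 and 2.46. The trend was 2.63 in liver (SE 0.24, adjusted p = 3.28e-06) and 2.31 in lung (SE 0.23, adjusted p = 2.0e-06), and the difference between the organs of -0.65 did not pass. Without slide 5 the lung trend, extrapolated from doses up to 8 Gy, was 3.32 (adjusted p = 0.000106). Between doses on the same slide, 2 of the 2 Gy livers lay 1.13 above 0 Gy and 2 of the 8 Gy lungs 1.39 above 2 Gy, in both cases without overlap. The 1 Gy lungs lay 0.67 above 0 Gy and the 4 Gy lungs 0.82 above 2 Gy, also without overlap. The 8 Gy livers lay 0.62 above the 4 Gy livers of their slide, and these groups overlapped.

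Polk, a polymerase that copies past bulky adducts, was the other gene that climbed in both organs. In liver it read 7.87, 8.23 and 8.22 at 0 Gy, 8.56, 8.30 and 8.49 at 1 Gy, 8.78, 8.69 and 8.89 at 2 Gy, 9.08, 9.04 and 9.18 at 4 Gy, 9.65, 9.52 and 9.88 at 8 Gy, and 9.95, 9.88 and 9.77 at 12 Gy. All irradiated livers were above the controls, and the change passed from 2 Gy (log2 0.68, adjusted p = 0.0313) to 12 Gy (1.76, or 3.38-fold, adjusted p = 1.79e-06). The 2 Gy call was lost in 8 of the 18 fits that left out 1 liver, at 0.56 to 0.74. In lung it read 10.08, 10.23 and 10.55 at 0 Gy, 10.51, 10.36 and 10.55 at 1 Gy, 10.75, 10.72 and 10.75 at 2 Gy, 10.79, 11.20 and 10.91 at 4 Gy, 11.04, 11.41 and 11.54 at 8 Gy, and 11.59, 11.66 and 11.32 at 12 Gy. The 1 Gy lungs overlapped the controls and the higher doses did not. The change passed at 4, 8 and 12 Gy, the last at 1.24 or 2.36-fold, and the call at 4 Gy was lost in 13 of the 18 fits that left out 1 lung. The trends were 1.71 in liver (SE 0.15, adjusted p = 2.32e-06) and 1.21 in lung (SE 0.14, adjusted p = 1.17e-05), the latter 1.42 without slide 5 (adjusted p = 0.00323). Without normalization the lung change at 12 Gy was 0.45 and did not pass (adjusted p = 0.0563), and with the mean over all Polk probes it was 0.50 (adjusted p = 0.244) and the lung trend 0.58 (adjusted p = 0.0936). Polk had 3 probes. A second Polk probe also rose, by less, at 0.57 in liver (adjusted p = 0.023) and 0.64 in lung (adjusted p = 0.011). The values of the third are not given, so the rise is stated for the brightest and the second probe only.

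**Figure D2:**
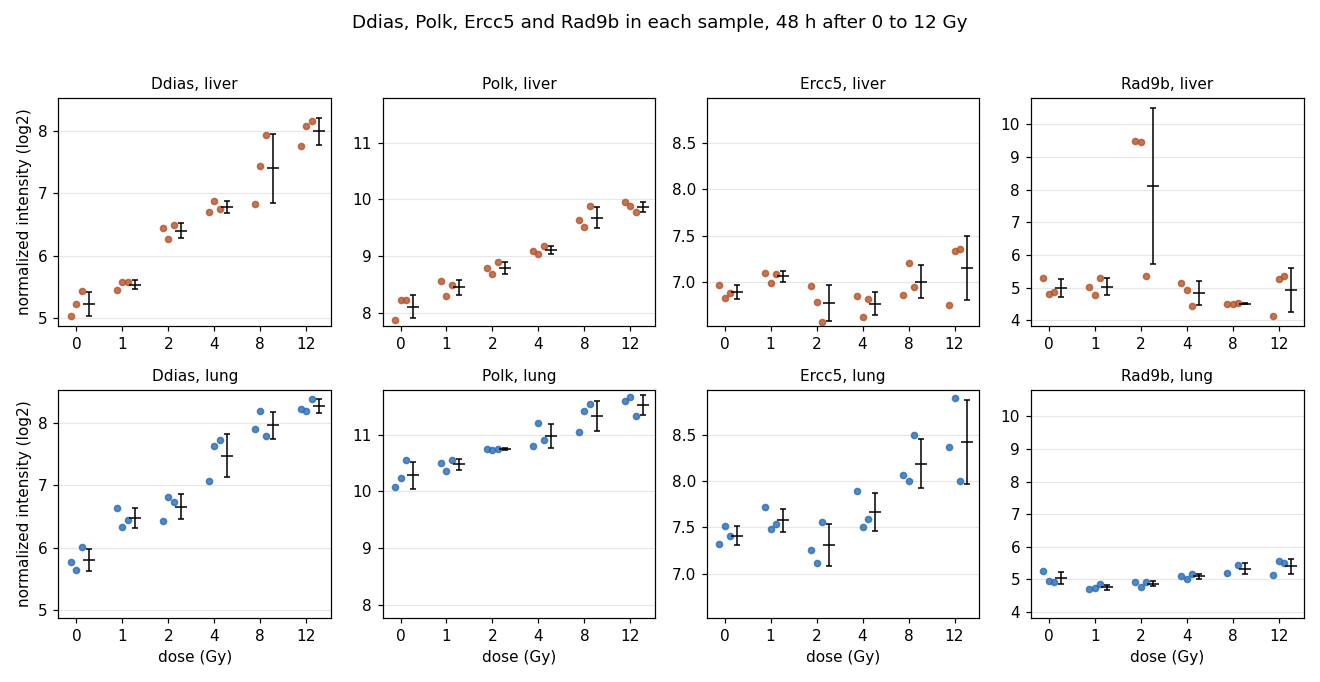
Log2 intensity of Ddias, Polk, Ercc5 and Rad9b in every liver and lung sample against dose in Gy, with points for samples and the mean ± SD of 3 samples per dose. Ddias and Polk climb in both organs, Ercc5 climbs in lung, and in Rad9b 2 liver samples at 2 Gy stand at 9.51 and 9.46 above all others.

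Promoter sequence is shown for the genes that changed by more than 2-fold at adjusted p below 0.05 at a dose or along the dose in at least 1 organ. These are Ddias, Polk and Ercc5, which rose (Ercc5 in lung only), and Brca1 and Fanci, which fell (Brca1 in lung only, with a rising trend in liver). Exo1 is the other such gene and has no entry. The sequences come from RefSeq (assembly GRCm38.p6) and run 5′ to 3′ on the gene's strand from 250 bases before to 50 bases after an annotated start. RefSeq promoters were found for 37 of the 46 genes, 44 promoters in all. Capitals mark matches on either strand to 4 motifs: the p53 decamer, the E2F sites TTTGGCGC or TTTCCCGC, the CHR element TTTGAA that is found in cell cycle genes, and the CCAAT box CCAAT. None of these motifs contains another. Ddias, chr7:92874198-92874497, minus strand, holds a CCAAT box on its opposite strand and no other match.
Ddias: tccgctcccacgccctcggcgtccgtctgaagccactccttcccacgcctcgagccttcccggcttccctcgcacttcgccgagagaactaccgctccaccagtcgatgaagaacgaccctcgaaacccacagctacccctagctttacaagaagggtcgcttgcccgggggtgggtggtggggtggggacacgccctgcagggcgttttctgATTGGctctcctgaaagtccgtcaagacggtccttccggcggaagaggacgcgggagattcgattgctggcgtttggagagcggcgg

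Polk has 2 annotated starts. The one at chr13:96519138-96519437, minus strand, holds a p53 decamer that begins 231 bases before the start, and the one at chr13:96542530-96542829, minus strand, holds no match.
Polk start with a match: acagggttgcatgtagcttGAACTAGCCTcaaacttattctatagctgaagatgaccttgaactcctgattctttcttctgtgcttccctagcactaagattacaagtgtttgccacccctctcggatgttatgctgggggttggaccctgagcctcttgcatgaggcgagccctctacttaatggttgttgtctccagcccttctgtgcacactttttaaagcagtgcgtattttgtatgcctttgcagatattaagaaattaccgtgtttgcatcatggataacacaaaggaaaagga
Polk start without a match: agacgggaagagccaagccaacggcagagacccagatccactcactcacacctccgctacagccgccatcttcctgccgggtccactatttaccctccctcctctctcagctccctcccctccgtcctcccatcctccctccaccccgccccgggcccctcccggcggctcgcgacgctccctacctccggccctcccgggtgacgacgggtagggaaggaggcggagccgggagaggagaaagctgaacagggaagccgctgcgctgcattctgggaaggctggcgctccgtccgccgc

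Ercc5, chr1:44147494-44147793, plus strand, holds a CCAAT box and, on the opposite strand, a CHR element. Brca1, chr11:101551906-101552205, minus strand, holds a CCAAT box, and Fanci, chr7:79392088-79392387, plus strand, holds no match.
Ercc5: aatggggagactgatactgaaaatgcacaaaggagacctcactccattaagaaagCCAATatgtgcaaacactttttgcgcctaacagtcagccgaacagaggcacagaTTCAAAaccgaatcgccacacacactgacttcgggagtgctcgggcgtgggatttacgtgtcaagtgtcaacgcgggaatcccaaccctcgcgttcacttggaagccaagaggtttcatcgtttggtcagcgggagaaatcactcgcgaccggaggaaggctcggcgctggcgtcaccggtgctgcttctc
Brca1: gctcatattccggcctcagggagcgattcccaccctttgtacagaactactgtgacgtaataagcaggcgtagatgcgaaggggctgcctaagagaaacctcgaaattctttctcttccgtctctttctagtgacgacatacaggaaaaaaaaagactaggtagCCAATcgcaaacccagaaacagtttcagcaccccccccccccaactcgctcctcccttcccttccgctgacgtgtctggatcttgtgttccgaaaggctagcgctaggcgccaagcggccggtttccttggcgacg
Fanci: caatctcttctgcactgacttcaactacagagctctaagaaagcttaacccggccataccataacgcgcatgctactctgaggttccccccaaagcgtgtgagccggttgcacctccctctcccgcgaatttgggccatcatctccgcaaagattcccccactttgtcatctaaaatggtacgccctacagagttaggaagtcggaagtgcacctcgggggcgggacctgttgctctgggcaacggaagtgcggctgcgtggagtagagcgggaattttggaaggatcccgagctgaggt

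Across the 44 promoters of the members, the p53 decamer occurred in 2 (4.55%, Fanca and Polk), against 8.36% of all 32851 RefSeq promoters of this length. An E2F site occurred in 7 (15.9%: Bard1, Brca2, Chek2, Mdc1, Msh6, Rad51c and Xrcc6), against 1.56% of all promoters. The CHR element occurred in 3 (6.82%, against 17.9%) and the CCAAT box in 22 (50%, against 37.4%). A match describes the letters in this window and is neither a bound site nor a cause.

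Among the 5 genes of nucleotide excision repair, 4 rose along the dose in lung, where 19.7% of all probes rose, and 3 of these (Xpc, Ddb2 and Xpa) turned negative without normalization. In liver 0 rose and 1 fell, where 4.04% and 5.47% of all probes did. Ercc5, the nuclease that cuts 3′ of a lesion, changed most. In lung it read 7.32, 7.51 and 7.41 at 0 Gy, 7.72, 7.48 and 7.53 at 1 Gy, 7.25, 7.11 and 7.56 at 2 Gy, 7.89, 7.51 and 7.59 at 4 Gy, 8.07, 8.00 and 8.50 at 8 Gy, and 8.37, 8.89 and 8.00 at 12 Gy. The samples up to 4 Gy overlapped the controls, and all 6 at 8 and 12 Gy lay above them. The lung change was 0.78 at 8 Gy (adjusted p = 0.0494) and 1.01 at 12 Gy (2.01-fold, adjusted p = 0.00422), with a trend of 1.1 (SE 0.17, adjusted p = 0.000166). The 8 Gy call was lost in 16 of the 18 fits that left out 1 lung. On 1 slide 2 of the 8 Gy lungs were 0.73 above the 2 Gy lungs without overlap. In liver Ercc5 read 6.97, 6.83 and 6.88 at 0 Gy, 7.10, 6.99 and 7.09 at 1 Gy, 6.95, 6.79 and 6.57 at 2 Gy, 6.85, 6.62 and 6.82 at 4 Gy, 6.86, 7.20 and 6.95 at 8 Gy, and 6.75, 7.33 and 7.36 at 12 Gy. The 1 Gy livers lay 0.17 above the controls of their slide without overlap, a difference that did not pass. The livers at higher doses overlapped the controls, and the trend of 0.23 did not pass (adjusted p = 0.340).

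The other genes of this pathway moved by less. Xpc, which finds helix distortions, went in lung from 10.44 ± 0.28 at 0 Gy to 10.99 ± 0.30 at 12 Gy (mean ± SD, n = 3; trend 0.56, limma adjusted p = 0.00792) and in liver from 9.24 ± 0.16 to 9.16 ± 0.13. Ddb2, which recognises ultraviolet photoproducts, went in lung from 10.97 ± 0.19 to 11.48 ± 0.12 (trend 0.54, adjusted p = 0.0021). Its liver means were 9.33 ± 0.18 at 0 Gy and 9.77 ± 0.03 at 12 Gy, a trend of 0.31 that did not pass. Xpa, a scaffold that verifies the lesion, went in lung from 12.62 ± 0.20 to 13.12 ± 0.26 (trend 0.47, adjusted p = 0.00959), and in liver it passed only at 8 Gy, at 0.63 above the controls (adjusted p = 0.0298), a call lost without any 1 of the controls or of the 8 Gy livers. The lung trend of Xpa was 0.38 and no longer passed without replicate 16 of the 12 Gy lungs. Ercc1, part of the nuclease that cuts 5′ of a lesion, fell in liver from 9.90 ± 0.03 to 9.36 ± 0.19 (trend -0.51, adjusted p = 0.00547) and read 11.95 ± 0.19 and 12.11 ± 0.20 in lung. Without normalization the lung trends of Xpc, Ddb2 and Xpa were -0.24, -0.21 and -0.16, and that of Ercc5 was 0.14 (adjusted p = 0.48), with a 12 Gy change of 0.006 (adjusted p = 0.983). Without slide 5 the lung trends were 0.13 for Xpc, 0.30 for Ddb2 and 0.60 for Xpa, none of which passed, and 0.91 for Ercc5, which did (adjusted p = 0.0467).

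**Figure D3:**
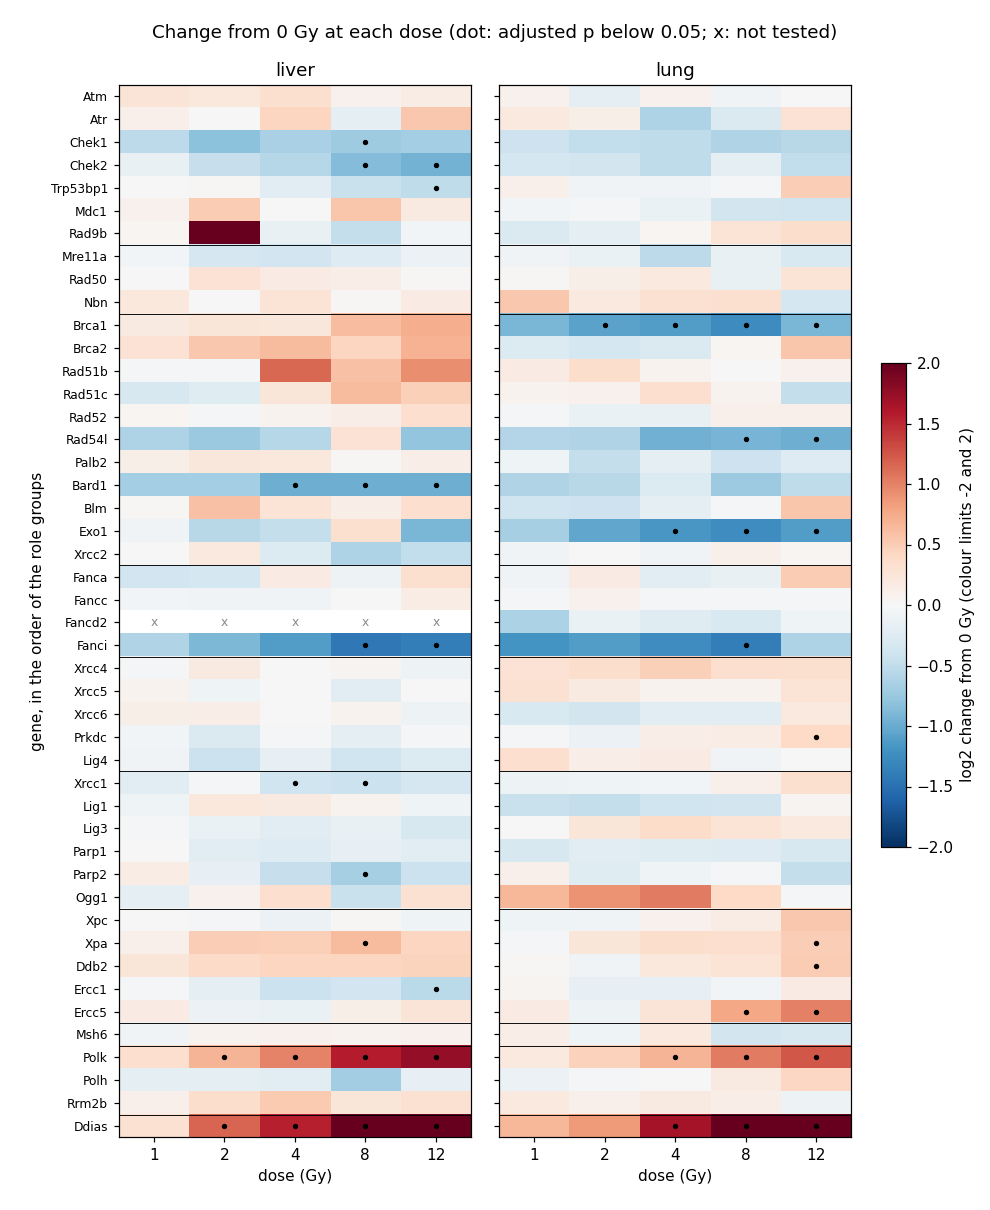
Log2 change against 0 Gy of the 46 genes at each of the 5 doses in liver and lung, as a colour scale, with a dot where adjusted p was below 0.05 and a cross where a gene was not tested. Dots at 2 Gy are few (2 genes in liver, 1 in lung), and none lie at 1 Gy.

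Checkpoint signalling comprised 7 genes, of which the trend of 2 fell in liver and that of 1 rose in lung. Of all probes 5.47% fell along the dose in liver and 19.7% rose in lung. Chek2, the kinase activated by Atm at breaks, fell in liver from 6.31 ± 0.20 at 0 Gy through 5.43 ± 0.13 at 8 Gy to 5.36 ± 0.36 at 12 Gy (mean ± SD, n = 3), a limma trend of -0.92 (SE 0.16, adjusted p = 0.00135). At 8 Gy it was well above background on none of the 3 arrays, and the fold there was 1.83-fold lower than the control. In such cases the dim array is given the higher of its own value and the lowest signal of a detected probe. Such a fold sets no lower limit. Under other processing or without 1 sample the log2 change of Chek2 at 8 Gy ran from -1.27 to -0.47. The call there was lost without control liver 21 (-0.76). In lung Chek2 read 6.86 ± 0.49 and 6.37 ± 0.27 at 0 and 12 Gy, and its trend of -0.21 did not pass. Trp53bp1, which binds chromatin around breaks and favours end joining, fell in liver from 7.88 ± 0.07 to 7.37 ± 0.20 (trend -0.59, adjusted p = 0.00235), and in lung it read 9.84 ± 0.16 and 10.33 ± 0.36 (trend 0.39, adjusted p = 0.0742). Chek1 passed at 8 Gy in liver only, 1.64-fold below the controls, with detection on none of the 8 Gy arrays. Its log2 change ran from -1.52 to -0.28 under the alternatives, and this call was lost in 14 of the 18 fits that left out 1 liver. Atm and Atr, the kinases at the top of the response, and Mdc1, a scaffold at breaks, passed at no dose and in no trend.

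Rad9b, a paralogue of a subunit of the checkpoint clamp, was detected on 3 of 18 liver and 2 of 18 lung arrays. In liver it read 5.30, 4.79 and 4.86 at 0 Gy, 5.02, 4.76 and 5.30 at 1 Gy, 9.51, 9.46 and 5.35 at 2 Gy, 5.13, 4.94 and 4.43 at 4 Gy, 4.50, 4.49 and 4.54 at 8 Gy, and 4.14, 5.28 and 5.36 at 12 Gy. Samples 3 and 13 of the 2 Gy group stood alone, 4.11 above the next liver sample. Among 55227 probes with values, no other had a gap as wide between the 2 highest liver samples and the rest when those were these samples, and the next widest was 2.11. The 2 Gy change of 3.12 did not pass. These 2 arrays shared a slide with each other and with the 0 and 1 Gy livers, and the part of the slide or of the spot in this reading was not tested. In lung Rad9b read 5.26, 4.96 and 4.92 at 0 Gy, 4.69, 4.74 and 4.85 at 1 Gy, 4.91, 4.77 and 4.93 at 2 Gy, 5.10, 5.02 and 5.17 at 4 Gy, 5.20 and 5.45 at 8 Gy with the other sample removed as an outlier spot, and 5.14, 5.56 and 5.50 at 12 Gy. The lung trend of 0.55 passed (adjusted p = 0.00496) at levels that were mostly not above background. It was 0.45 without slide 5 (adjusted p = 0.415) and -0.12 without normalization.

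Of the sensor complex that first binds broken ends, Mre11a, Rad50 and Nbn, 0 of 3 genes passed in either organ. Along the dose 4.04% of all probes rose and 5.47% fell in liver, and 19.7% and 11.0% in lung. The trends of the 3 genes ran from -0.06 to 0.05 in liver and from -0.46 to 0.11 in lung.

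Homologous recombination was the largest group, with 11 genes, and it did not move as a block. Along the dose 2 of 11 rose in liver (Rad51c and Brca1), and in lung 2 rose (Blm and Brca2) and 2 fell (Exo1 and Rad54l). Of all probes 4.04% rose and 5.47% fell in liver, and 19.7% rose and 11.0% fell in lung. Brca1, a ubiquitin ligase that promotes resection of break ends, went opposite ways in the organs. In lung it read 7.44, 7.56 and 8.27 at 0 Gy, 6.93, 6.84 and 6.74 at 1 Gy, 6.56, 6.91 and 6.61 at 2 Gy, 6.45, 6.60 and 6.85 at 4 Gy, 6.30, 6.60 and 6.59 at 8 Gy, and 6.72, 7.09 and 6.70 at 12 Gy. All 15 irradiated lungs lay below all 3 controls. The change passed from 2 Gy on, at -1.06, -1.12, -1.26 and -0.92 for 2, 4, 8 and 12 Gy (adjusted p = 0.0253, 0.00637, 0.00137 and 0.00606), and the 2 Gy call was also lost without 2 Gy lung 3 (adjusted p = 0.136) or 23 (adjusted p = 0.151). The 1 Gy lungs, which shared a slide with the controls, were 0.92 below them without passing (adjusted p = 0.167). The drop did not deepen with dose, and the lung trend of -0.54 did not pass (adjusted p = 0.148), while that of a second Brca1 probe did.

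In liver Brca1 read 8.19, 8.24 and 8.47 at 0 Gy, 8.87, 8.39 and 8.16 at 1 Gy, 8.61, 8.38 and 8.61 at 2 Gy, 8.80, 8.65 and 8.15 at 4 Gy, 9.15, 8.55 and 9.05 at 8 Gy, and 8.58, 9.51 and 9.01 at 12 Gy. Samples at 8 and 12 Gy lay above the controls and the lower doses overlapped them. No single dose passed, and the trend of 0.71 did (SE 0.19, adjusted p = 0.0197), although it was 0.55 and no longer passed without replicate 16 of the 12 Gy livers.

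Exo1 was close to background in liver, where it read 4.45, 5.29 and 5.15 at 0 Gy, 5.06, 5.03 and 4.61 at 1 Gy, 4.66, 4.34 and 4.23 at 2 Gy, 4.81, 4.37 and 4.28 at 4 Gy, 6.43, 4.66 and 4.73 at 8 Gy, and 3.92, 4.02 and 4.21 at 12 Gy. In lung it read 6.59, 6.81 and 8.01 at 0 Gy, 6.30, 6.72 and 6.42 at 1 Gy, 6.29, 6.21 and 5.80 at 2 Gy, 5.98, 6.09 and 5.86 at 4 Gy, 6.11, 5.68 and 5.92 at 8 Gy, and 5.88, 6.35 and 5.86 at 12 Gy. Lungs from 2 Gy on lay below all controls, and at 8 and 12 Gy 2 and 1 of the 3 were detected. The change passed at 4, 8 and 12 Gy, at -1.16, -1.24 and -1.11 (adjusted p = 0.0487, 0.0206 and 0.014), and the trend was -0.80 (adjusted p = 0.047), a call lost in 14 of the 18 fits that left out 1 lung and without slide 5 (-1.65, adjusted p = 0.097). The 4 Gy call was lost in 15 of the 18 fits, and without control lung 21 the 12 Gy change was -0.67 (adjusted p = 0.0469). Rad54l fell in lung from 7.10 ± 0.61 at 0 Gy to 6.12 ± 0.33 at 12 Gy (mean ± SD, n = 3; limma trend -0.73, adjusted p = 0.0233), with 1 of the 12 Gy lungs inside the range of the controls. That trend no longer passed without replicate 6 (-0.72) or replicate 26 (-0.71) of the 12 Gy lungs, nor without slide 5 (-1.1, adjusted p = 0.169). In liver 1 sample of the 8 Gy group, replicate 25, read 8.03 for Rad54l and the other 17 between 4.34 and 5.87, and for Exo1 another 8 Gy liver, replicate 5, stood highest at 6.43.

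Bard1 fell in liver from 6.06 ± 0.49 at 0 Gy to 5.08 ± 0.04 at 8 Gy and 5.08 ± 0.09 at 12 Gy (mean ± SD, n = 3), and limma passed the change at 4, 8 and 12 Gy, at -0.97, -0.98 and -0.98. The 4 Gy call was lost without control liver 11 (-0.79) or 21 (-0.88) or without 4 Gy liver 14 (-0.96) or 24 (-0.84). The liver samples at these doses lay below all controls, with detection on all 3 controls but on 1 array each at 4 and 12 Gy. At 8 Gy, where none was detected, the fall was 1.97-fold with dim arrays treated as for Chek2. Under the alternatives its log2 change ran from -1.26 to -0.19. In lung Bard1 read 8.26 ± 0.54 at 0 Gy and 7.76 ± 0.11 at 12 Gy and did not pass. Rad51c, a recombination factor, rose in liver from 13.63 ± 0.20 at 0 Gy to 14.10 ± 0.23 at 12 Gy (trend 0.83, adjusted p = 0.00977), and read 11.20 ± 0.20 and 10.72 ± 0.33 in lung. Blm, a helicase that dissolves recombination intermediates, rose in lung from 8.08 ± 0.40 to 8.63 ± 0.28 (trend 0.73, adjusted p = 0.0153), and read 8.27 ± 0.07 and 8.60 ± 0.41 in liver. Without normalization the lung trend of Blm was -0.21, and without replicate 16 of the 12 Gy lungs it was 0.56 and no longer passed. Without slide 5 it was -0.11 (adjusted p = 0.91).

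Brca2, a mediator of strand exchange at resected ends, read in lung 7.82, 6.92 and 7.96 at 0 Gy, 7.13, 7.54 and 7.22 at 1 Gy, 7.15, 7.18 and 7.29 at 2 Gy, 7.38, 7.25 and 7.20 at 4 Gy, 7.44, 7.61 and 7.79 at 8 Gy, and 7.76, 8.29 and 8.33 at 12 Gy. The 12 Gy lungs overlapped the controls, which were widely spread. The trend of 0.71 passed (adjusted p = 0.0153), but not without replicate 16 (0.59) or replicate 26 (0.57) of the 12 Gy lungs, and without normalization it was -0.23. Without slide 5 it was 0.053 (adjusted p = 0.961). In liver it read 6.94, 6.92 and 7.08 at 0 Gy, 7.90, 7.13 and 6.79 at 1 Gy, 7.46, 7.39 and 7.69 at 2 Gy, 7.50, 7.44 and 7.91 at 4 Gy, 7.15, 7.58 and 7.52 at 8 Gy, and 7.59, 7.96 and 7.47 at 12 Gy. Livers at 2 Gy and above lay over the controls, but the trend of 0.45 did not pass (adjusted p = 0.189).

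In the Fanconi anaemia pathway only Fanci passed, while Fanca and Fancc, subunits of the core complex, and Fancd2 did not with their brightest probes. Fanci read in liver 5.04, 5.98 and 6.14 at 0 Gy, 4.79, 5.54 and 5.03 at 1 Gy, 5.41, 4.31 and 4.75 at 2 Gy, 4.67, 4.54 and 4.60 at 4 Gy, 4.11, 4.22 and 4.54 at 8 Gy, and 4.61, 3.70 and 4.68 at 12 Gy. From 4 Gy on every liver lay below the controls, and of these none was detected above background, against 2 of 3 controls. With dim arrays treated as for Chek2 the falls at 8 and 12 Gy were 2.35-fold and 2.43-fold (limma adjusted p = 0.0158 and 0.0204). Under the alternatives the log2 changes ran from -2.09 to -0.58 at 8 Gy and from -2.28 to -0.56 at 12 Gy. In lung it read 7.03, 7.40 and 8.36 at 0 Gy, 6.31, 6.48 and 6.42 at 1 Gy, 6.77 and 6.17 at 2 Gy with the other sample removed as an outlier spot, 6.29, 6.32 and 6.44 at 4 Gy, 6.33, 6.32 and 6.01 at 8 Gy, and 7.61, 7.15 and 6.19 at 12 Gy. Lungs from 1 to 8 Gy lay below the controls, but at 12 Gy the groups overlapped again, so that only 8 Gy passed (-1.38, adjusted p = 0.0324) and the trend of -0.22 did not. The liver trend of -1.18 (adjusted p = 0.017) was -1.04 and no longer passed without replicate 16 of the 12 Gy livers. The calls of Fanci at single doses were lost in 4 of 18 fits for 8 Gy and 3 of 18 for 12 Gy in liver, and in 5 of 18 for 8 Gy in lung.

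**Figure D4:**
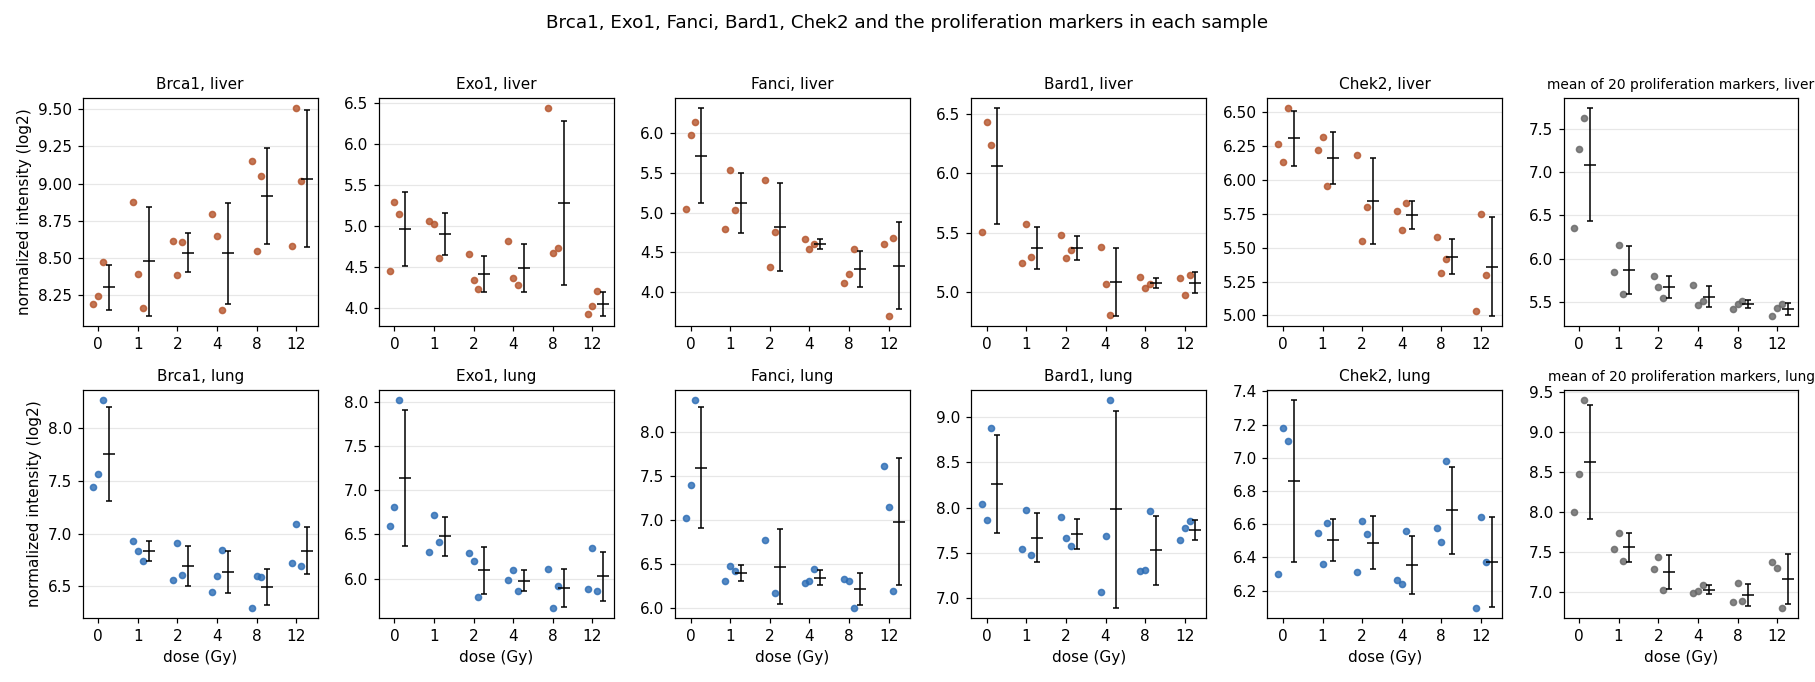
Log2 intensity of Brca1, Exo1, Fanci, Bard1 and Chek2 in every sample against dose in Gy, with the mean of 20 proliferation markers in the last panels, points for samples and the mean ± SD of 3 samples per dose. In lung the control sample 21 is the highest of its group for Brca1 (8.27), Exo1 (8.01) and Fanci (8.36) and for the marker mean (9.39).

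Genes of dividing cells and of lymphocytes moved in the same samples. Of 20 proliferation markers, 16 fell at 12 Gy in liver and 15 in lung, and none rose. Their mean log2 level was 6.36 to 7.62 in the control livers and 5.34 to 5.48 at 12 Gy, and 8.00 to 9.39 in the control lungs and 6.80 to 7.38 at 12 Gy. At 12 Gy 4.10% of all probes fell in liver and 7.81% in lung, and along the dose 5.47% and 11.0% did. Of 14 B cell markers with a probe, 9 fell along the dose in liver, where 13 were tested, and 12 in lung, with a mean of 9.56 to 10.4 in the control lungs and 6.54 to 6.74 at 12 Gy. Of 13 T cell markers 6 fell in liver, where 12 were tested, and 11 in lung, with lung means of 9.84 to 11.7 and 7.36 to 7.80. The control with the highest mean of proliferation markers was sample 21 in both organs, at 7.62 in liver and 9.39 in lung. Without the control lung 21 the falls of Brca1 at 2 Gy (-0.81), Exo1 at 4 and 8 Gy (-0.72 and -0.80), Rad54l at 8 and 12 Gy (-0.65 and -0.70) and Fanci at 8 Gy (-0.996) no longer passed. Most of these calls were also lost without other lungs. Of the 18 fits that left out 1 lung, the call was lost in 3 for Brca1 at 2 Gy and in 15 and 3 for Exo1 at 4 and 8 Gy. It was lost in 16 and 1 for Rad54l at 8 and 12 Gy and in 5 for Fanci at 8 Gy. The falls of Brca1 at 4, 8 and 12 Gy and of Exo1 at 12 Gy passed in all 18 fits. The part of dividing cells and lymphocytes in the changes of Brca1, Exo1, Fanci, Rad54l, Bard1 and Chek2 was not tested.

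Of 5 end joining genes 1 changed, in lung, where 19.7% of all probes rose along the dose. Prkdc, the large kinase that DNA ends activate, rose in lung from 9.74 ± 0.08 at 0 Gy to 10.14 ± 0.02 at 12 Gy (mean ± SD, n = 3; limma trend 0.43, adjusted p = 0.00577), and read 8.28 ± 0.11 and 8.24 ± 0.06 in liver. The lung trend of Prkdc was -0.44 without normalization and 0.22 without slide 5 (adjusted p = 0.596). Xrcc5 and Xrcc6, the Ku subunits that cap DNA ends, and Xrcc4 and Lig4, which seal them, passed in neither organ. The 5 liver trends lay between -0.23 and -0.01.

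Base excision and single strand break repair had 6 genes, of which Parp2 fell along the dose in liver and Xrcc1 rose in lung. Beside them 5.47% of all probes fell in liver and 19.7% rose in lung. Xrcc1, the scaffold of this pathway, went opposite ways, from 9.82 ± 0.09 at 0 Gy to 9.38 ± 0.07 at 8 Gy and 9.49 ± 0.09 at 12 Gy in liver (mean ± SD, n = 3), where limma passed 4 Gy (-0.40, adjusted p = 0.0344) and 8 Gy (-0.44, adjusted p = 0.0113). In lung it went from 11.25 ± 0.17 to 11.57 ± 0.30 (trend 0.37, adjusted p = 0.0236), a call that was lost without replicate 16 of the 12 Gy lungs (0.23) and without slide 5 (0.11, adjusted p = 0.795), and a value that was -0.36 without normalization. Parp2, a sensor that builds poly(ADP-ribose) at breaks, went in liver from 7.74 ± 0.01 to 7.08 ± 0.10 at 8 Gy and 7.31 ± 0.18 at 12 Gy (trend -0.60, adjusted p = 0.0213), and read 8.79 ± 0.26 and 8.32 ± 0.27 in lung at 0 and 12 Gy. Parp1, Ogg1, which removes oxidised guanine, and the ligases Lig1 and Lig3 did not pass within an organ with their brightest probes.

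The remaining genes were Polh, Rrm2b and Msh6. Polh, the polymerase that copies past ultraviolet photoproducts, went in lung from 5.77 ± 0.37 to 6.19 ± 0.33 (mean ± SD, n = 3; limma trend 0.48, adjusted p = 0.0486, lost in 13 of the 18 fits that left out 1 lung), but another Polh probe, detected on 4 of 18 lung arrays, fell by 0.81 (adjusted p = 0.0067), so that no direction is given for the gene. The brightest probe was also at -0.36 without normalization and at 0.051 without slide 5 (adjusted p = 0.951). Rrm2b, the ribonucleotide reductase subunit induced by p53, and Msh6, a mismatch sensor, passed at no dose and in no trend.

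Second probes differed from the brightest ones elsewhere too. A second Fanca probe rose in liver by 0.69 (adjusted p = 0.049) and fell in lung by 1.27 (adjusted p = 0.019), where the brightest did not pass. Second probes of Brca1 in lung (-0.85, adjusted p = 0.027), Ercc1 in liver (-0.49) and Trp53bp1 in lung (0.45, adjusted p = 0.033) ran in the direction of the first. For Brca1 and Trp53bp1 in lung the trend of the first probe did not pass. Those of Rad52 in liver (0.37, adjusted p = 0.026), Lig3 in lung (0.43, adjusted p = 0.016) and Parp2 in lung (-0.56, adjusted p = 0.0499) also passed where the first did not.

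A wider list of 69 other repair genes gave the setting for these counts. In liver 3 rose and 10 fell along the dose, and in lung 24 rose and 3 fell, beside the 4.04% and 5.47%, and 19.7% and 11.0%, of all probes given above. Mgmt, which removes alkyl groups from guanine, rose most in lung, by 1.89 (SE 0.19, adjusted p = 2.01e-06), and by 0.66 in liver (adjusted p = 0.00108). Rad51ap1, another recombination factor, fell in both organs, by 1.23 in liver (adjusted p = 0.0179) and by 1.72 in lung (adjusted p = 0.000661), and Neil3, a glycosylase of dividing cells, fell by 1.99 in lung (adjusted p = 0.00758). Of 16 p53 target genes outside repair, 13 rose along the dose in each organ and none fell.

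Before irradiation the organs differed in many of these genes. With all 36 arrays normalized together, at 0 Gy 11 genes were higher and 14 lower in lung than in liver at adjusted p below 0.05, beside 26.0% and 26.8% of all probes. Without normalization 37 were higher and 1 lower, beside 25916 and 4144 of 47376 probes. Differences beyond 2-fold were those of Rad51c (-3.07), Brca1 (-1.92), Blm (-1.57), Nbn (-1.18), Xrcc5 (-1.15) and Rad51b (-1.09), which were lower in lung, and of Rrm2b (1.22), Exo1 (1.09) and Ercc1 (1.07), which were higher. A second probe of Rad51c differed by only -0.24 (adjusted p = 0.70), while second probes of Blm and Brca1 gave -1.39 and -1.02. Nbn and Rad51b turned to 0.39 and 0.41 without normalization, when the median of all probes was 0.81. The call of Rad51b was lost in 30 of the 36 fits that left out 1 sample, with values from -0.52 to -1.71, and that of Exo1, close to background in liver, was lost without control liver 1 (0.73) or control lung 21 (0.69). The 0 Gy arrays of the organs lay on different slides.

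The dose trend itself differed between the organs for 11 genes, 9 with a higher trend in lung and 2 with a higher trend in liver, against 11.0% and 5.59% of all probes. Without normalization these counts were 0 and 16, beside 437 and 12795 of all probes. The median difference over the 46 genes was 0.16, beside 0.08 for all probes. The 2 genes with the higher trend in liver were Rad51c (-1.26, adjusted p = 0.0032) and Brca1 (-1.14, adjusted p = 0.011). Among the 9 with the higher trend in lung were 3 of the 5 nucleotide excision repair genes, Ercc5 (0.84), Xpc (0.65) and Ercc1 (0.64), together with the scaffolds Trp53bp1 (0.99) and Xrcc1 (0.73). The other 4 were Chek2 (0.89), Xrcc2 (0.87), Prkdc (0.48) and Lig3 (0.45). Xrcc2, a recombination factor, read 6.21 ± 0.12 and 5.71 ± 0.57 in liver at 0 and 12 Gy and 7.14 ± 0.34 and 7.17 ± 0.16 in lung (mean ± SD, n = 3), and Lig3 read 9.55 ± 0.07 and 9.23 ± 0.05 in liver and 10.15 ± 0.08 and 10.35 ± 0.05 in lung. Ddias and Polk, the genes that rose in both organs, were not among the 11. Without the lung arrays of slide 5, 2 of the 11 passed, Brca1 (-2.01, adjusted p = 0.0119) and Lig3 (0.90, adjusted p = 0.0155). Of all probes 284 passed there with a higher trend in lung and 357 with a higher trend in liver. With slide as a term in the fit, 0 of these 11 differences passed, and 0 of all probes did either.

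**Figure D5:**
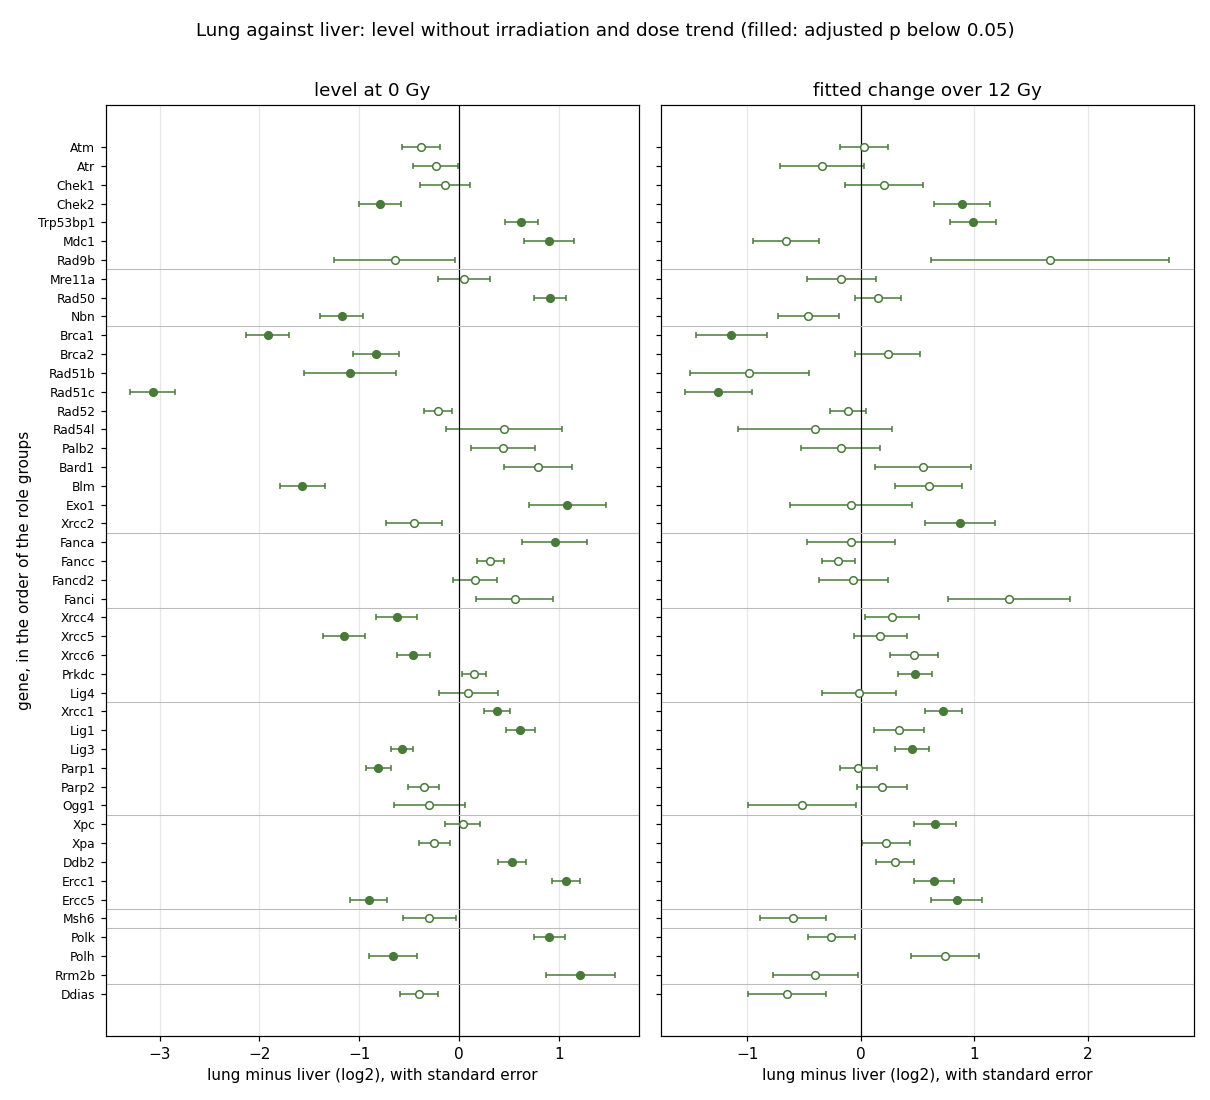
Difference between lung and liver (log2, lung minus liver) of the 46 genes in level at 0 Gy (left) and in dose trend over 12 Gy (right), with standard errors and filled points where adjusted p was below 0.05. Rad51c (-3.07 and -1.26) and Brca1 (-1.92 and -1.14) lie farthest to the left in both panels.

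Slide and dose overlap, and this limits the calls on most single genes. With slide as a term in the fit 1 trend passed in each organ, that of Polk in liver (1.54, adjusted p = 0.0128) and that of Ddias in lung (2.58, adjusted p = 0.0155). In that fit 56 of all probes rose and 52 fell in liver, and 34 rose and 100 fell in lung. The Ddias trend in liver was 1.90 there and did not pass (adjusted p = 0.0728). The trends of Ddias and Polk passed in every fit that left out 1 sample.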

How the data were processed

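RNA of 18 liver and 18 lung samples was amplified from its poly(A) fraction and hybridised to 1-colour Agilent arrays, 1 array per sample. The deposited intensity values, per the file headers, come from Agilent Feature Extraction 11.5.1.1 and were not normalized between arrays; the authors also deposited a series table of linear intensity whose scaling is not given in the sources used here and which served as an alternative. From the spot and background medians, a normexp correction (offset 0) was made, control spots were dropped, outlier spots were set to missing, and values were quantile normalized and put on the log2 scale (limma 3.58.1, statmod 1.5.0, R 4.3.3). Probes well above background (at least 0.5 of their spots) on at least 1 array of a fit were tested with limma, with each dose against 0 Gy, a linear dose trend, and lung minus liver in the trend and at 0 Gy. Adjusted p-values (Benjamini-Hochberg) run over all tested probes, 38362 in liver, 43979 in lung and 47376 for both. Genes that changed by more than 1 in log2 with adjusted p below 0.05 at a dose or in a trend within an organ were given with values in each sample, together with Rad9b and Brca2. Genes with a passing trend or organ difference in trend were given as group means, others as counts. Of other repair genes, those beyond a log2 trend of 1 were named, at most 3 per direction and organ.

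The members and gene lists were chosen with earlier results of these data known. Probes were named through RefSeq transcripts (GRCm38.p6; 34566 of 56605 probes), since the probe annotation is of another build, and 9009 probes with an Ensembl transcript name only stayed unnamed. The methods give 3 animals per dose, and the labels do not name the animal of each sample, so p-values measure the spread between these samples, and precision is limited by how few arrays there are. The fits were run on simulated data with independent samples and no slide effect, which cannot test the overlap of slide and dose. The microRNA arrays were not used here. Alternatives were another background correction, other signals and scalings, filters, other probe rules, slide and sample number as blocks, the logarithm of dose, and leaving out each sample or, chosen after seeing the data, the lung arrays of slide 5.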

Additional observations from a re-analysis of the deposited data

Results flagged for a closer look

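The dose trend over 12 Gy differed between lung and liver in the test of the difference itself (limma on 36 arrays normalized together, lung minus liver, Benjamini-Hochberg over all tested probes) for 11 of the 46 genes. The differences were 0.99 for Trp53bp1 (adjusted p = 0.00115), 0.89 for Chek2 (adjusted p = 0.0127), 0.87 for Xrcc2 (adjusted p = 0.048), 0.84 for Ercc5 (adjusted p = 0.00781) and 0.73 for Xrcc1 (adjusted p = 0.00225). They were 0.65 for Xpc (adjusted p = 0.0145), 0.64 for Ercc1 (adjusted p = 0.00961), 0.48 for Prkdc (adjusted p = 0.0252) and 0.45 for Lig3 (adjusted p = 0.035). The trend was lower in lung for Brca1, by -1.14 (adjusted p = 0.011), and for Rad51c, by -1.26 (adjusted p = 0.0032).

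Leaving out 1 sample ended the call for Xrcc2 in 23 of 36 fits and for Lig3 in 7 of 36. It ended it for Prkdc without replicate 16 or 26 of the 12 Gy lungs (0.46 in both fits) and for Xpc without replicate 16 of the 12 Gy lungs (0.49). With slide as a term none of the 11 passed, and without the lung arrays of slide 5 only Brca1 (-2.01) and Lig3 (0.90) did.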

How the results depend on the processing

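Slides run nearly parallel to dose, and slide as a fixed term changed most calls. It left 3 genes passing in the liver dose contrasts (11 in the main analysis), 1 in the liver trend (9), 1 in the lung trend (14), 0 in the organ difference of trend (11) and 9 at 0 Gy (25). Leaving out the 4 lung arrays of slide 5, chosen after seeing the data, left 3 in the lung trend and 2 in the organ difference of trend. The lung contrasts from 2 to 12 Gy could not be fitted with it. Slide as a random block left 3 in the lung contrasts (10) and 7 in the organ difference of trend. No normalization between arrays gave 31 in the lung contrasts, 37 in the lung trend and 38 at 0 Gy; the mean over probes gave 7 in the organ difference of trend, and the trend on log2(dose + 1) gave 14 in liver. Leaving out 1 sample gave 7 to 14 in the liver contrasts (7 without liver 0 Gy replicate 11), 9 to 11 in the liver trend, 6 to 15 in the lung contrasts (6 without lung 0 Gy replicate 11), 9 to 16 in the lung trend (9 without lung 12 Gy replicate 16), 8 to 13 in the organ difference of trend and 20 to 27 at 0 Gy. The 75th percentile scaling moved the median lung trend of all probes to 0.23.

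Of 2973 values of 86 results on single genes under the alternatives, 2462 kept direction and call, 487 lost the call and 24 changed sign; 55 of the 65 values with slide as a fixed term were among the lost or turned. Turned without normalization were, at 12 Gy in lung, Prkdc -0.49, Xpa -0.14 and Ddb2 -0.26; in the lung trend, Rad9b -0.12, Brca2 -0.23, Blm -0.21, Prkdc -0.44, Xrcc1 -0.36, Xpc -0.24, Xpa -0.16, Ddb2 -0.21 and Polh -0.36; in the organ difference of trend, Chek2 -0.087, Xrcc2 -0.075, Prkdc -0.26, Lig3 -0.21 and Xpc -0.013; and at 0 Gy, Nbn 0.39 and Rad51b 0.41. Blm in the lung trend turned without slide 5 (-0.11). Polh in lung turned with the mean over probes (-0.081) and with slide as a fixed term (-0.13), as did Rad51c in the organ difference of trend (0.33) and Rrm2b at 0 Gy (-0.17) with slide. The cause was not tested. Low signal limits the liver calls on Fanci, Bard1, Chek1 and Chek2, and the size of the Ddias change in liver.

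Sample numbers are shared by the organs, but the labels do not say that they mark 1 mouse. Over all probes the deviations of same-numbered livers and lungs from their group means correlated by -0.05 to 0.05 in the 18 pairs, with the own number best in 6 of 18, although sample 21 had the highest mean of proliferation markers among the controls of both organs. With the replicate block, 11 genes passed in the organ difference of trend and 25 at 0 Gy, and 10 and 25 of these also passed without it.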
